A study of Drosophila melanogaster with 2 samples.

Results

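The regions described here were 341 binding peaks of Engrailed fused to GFP whose summit lay in an intron, close to but not at a transcription start site (TSS). They were 341 of the 2226 peaks in the authors' optimal IDR list, or 15.3% (exact Clopper-Pearson 95% interval 13.8 to 16.9%). IDR, the irreproducible discovery rate, is a measure of how alike regions rank in replicates. The list here was made up of the 2226 highest regions of the pool. A peak was a member when its summit lay inside a gene body, outside every annotated exon, and more than 500 bp but at most 2000 bp from the nearest TSS of any transcript. Of the other IDR peaks, 1098 had their summit within 500 bp of a TSS (promoter peaks), 448 lay in introns more than 2000 bp from any TSS (deep intronic peaks), 56 lay in exons and 283 between genes. Position alone chose the members among the IDR peaks, while signal had already chosen the IDR list, so signal is given below as a description.

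Chromatin immunoprecipitation with sequencing was done on whole Drosophila melanogaster embryos, male and female pooled, aged 0 to 16 h. The line, of strain 3T-GFP, stably expressed en with GFP at its C-terminus. The immunoprecipitation used an antibody against GFP per the description, although the antibody label reads en. The 2 libraries were biological replicates, numbered 1 and 3, of 1 group, and all comparisons below are between regions, not between embryos. Whole embryos mix all cell types, so binding in few cells cannot be told apart from weak binding in many. No source used here says whether separate embryo collections were made for them, so the spread between them may be technical.

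Engrailed is a homeodomain protein that acts mainly as a transcriptional repressor. It keeps the posterior compartment of each segment distinct from the anterior one, and it is made again in a subset of neurons. Homeodomains of its class recognise a short core, TAATTA. Introns close to the start of a fly gene often hold enhancers and alternative promoters, so an intronic summit may lie near regulatory DNA of the host gene or of a neighbour. Expression was not measured here, and the gene named for a peak is the gene that holds it, not a shown target.

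The DNA under the strongest peaks is shown first because its base composition is the feature that set the members apart from their surroundings. The lines below give the 101 bp centred on the summit for 7 of the 9 members of highest signal, on the forward strand of dm6. Capitals mark the letters of any of the 34 6-letter words, 1.63% of those tested, that were more frequent at member summits than beside them, counted on both strands.
ush, chr2L:481035-481135: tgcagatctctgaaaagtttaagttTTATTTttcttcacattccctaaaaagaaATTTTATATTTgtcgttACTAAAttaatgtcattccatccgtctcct
Lk6, chr3R:11761010-11761110: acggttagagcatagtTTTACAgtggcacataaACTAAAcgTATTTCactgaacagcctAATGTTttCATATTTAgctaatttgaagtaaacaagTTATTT
CG11050, chr2L:6612665-6612765: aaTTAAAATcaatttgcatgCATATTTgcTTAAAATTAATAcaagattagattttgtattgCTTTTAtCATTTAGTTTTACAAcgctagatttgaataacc
CG32772, chrX:4910333-4910433: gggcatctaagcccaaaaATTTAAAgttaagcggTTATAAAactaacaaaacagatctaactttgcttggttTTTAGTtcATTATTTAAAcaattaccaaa
CG9663, chr2L:3302136-3302236: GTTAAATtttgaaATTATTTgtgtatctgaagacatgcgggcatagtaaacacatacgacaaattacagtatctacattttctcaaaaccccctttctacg
Trl, chr3L:14759436-14759536: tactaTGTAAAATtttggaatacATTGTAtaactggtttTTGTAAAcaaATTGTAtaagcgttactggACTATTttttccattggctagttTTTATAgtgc
NFAT, chrX:13640444-13640544: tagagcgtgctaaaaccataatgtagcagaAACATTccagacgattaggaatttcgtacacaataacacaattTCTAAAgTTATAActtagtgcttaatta

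The windows beside the 2 strongest of these summits, centred 400 bp away on the side away from the nearest TSS, are shown with the same capitals. The window at the ush summit was 28.7% G+C and its flank 48.5%, and the window at Lk6 was 30.7% against 44.6% in its flank. Not every strong peak showed this: of the 20 strongest members the summit was lower in G+C than its flank in 14 and higher in 6, as at cno with 42.6% against 24.8%.
ush, chr2L:481435-481535: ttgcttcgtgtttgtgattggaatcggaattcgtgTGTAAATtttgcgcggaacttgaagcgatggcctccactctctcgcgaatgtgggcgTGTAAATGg
Lk6, chr3R:11761410-11761510: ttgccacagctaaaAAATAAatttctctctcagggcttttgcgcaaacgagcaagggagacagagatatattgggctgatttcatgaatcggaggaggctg

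The strongest member lay in an intron of ush, which encodes a zinc-finger cofactor of GATA factors, at chr2L:480906-481272. It had the highest signal of all 2226 IDR peaks, 1022 in the pool of both replicates, 384 in replicate 1 and 636 in replicate 3. Its nearest TSS, 1397 bp away, belonged to cbt, which encodes a zinc-finger transcription factor, and that TSS had a promoter peak of its own with a signal of 329. This signal is the authors' value per region. No source used here states its scale, and levels of the pool and of each replicate come from separately made lists.

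Lk6, which encodes a kinase of the translation initiation factor eIF4E, held the next strongest member, at chr3R:11760884-11761213, with 846 in the pool, 333 in replicate 1 and 511 in replicate 3. CG11050 followed with 838, 302 and 532 in the same order. The CG11050 summit lay in an intron of only 140 bp, so this region, at chr2L:6612510-6612907, also covered exons. In 37 of the 341 members, 10.9%, the region overlapped an exon although the summit did not, and in 7 the intron was shorter than the region. After these 3 the signal dropped to 519 at CG32772 and 482 at CG9663.

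Chromatin proteins and transcription factors were among the hosts of the 20 strongest members. The intron of HmgZ and HmgD, which encode HMG-box chromatin proteins and overlap there, held a peak of 476 in the pool, with 183 and 291 in replicates 1 and 3. Trl, which encodes GAGA factor, held one of 409 at chr3L:14759348-14759685, with 148 and 261 in replicates 1 and 3. NFAT, which encodes a Rel-family transcription factor, held one of 371, with 143 and 229. Adf1, which encodes a DNA-binding transcription factor, held one of 315, with 112 and 203, and wde, which encodes a cofactor of a histone H3 methyltransferase, one of 285, with 114 and 178. In each of these 5 peaks replicate 3 gave the higher value.

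The other hosts of the 20 strongest had varied roles. The cno peak, in a gene for an adherens-junction scaffold, reached 341 and was the only one of the 20 with a higher value in replicate 1, 175, than in replicate 3, 168. The peaks in for, which encodes a cGMP-dependent protein kinase, and in Zw, which encodes glucose-6-phosphate dehydrogenase, had signals of 333 and 300. The Zw summit was nearest to the TSS of an antisense RNA, asRNA:CR44512, at 850 bp. The remaining hosts were CG31635 with 417, Reph with 351, CG3726 with 339, CG9837 with 317, sick with 289, schlank, which encodes a ceramide synthase, with 283, and chif, which encodes a subunit that activates the Cdc7 kinase and overlaps Hyls1, with 276. Of the 20, 18 were nearest to a TSS of a gene that held them, 17 lay in a first intron, and 2, at cbt and CG31635, had a promoter peak at that TSS.

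**Figure D1:**
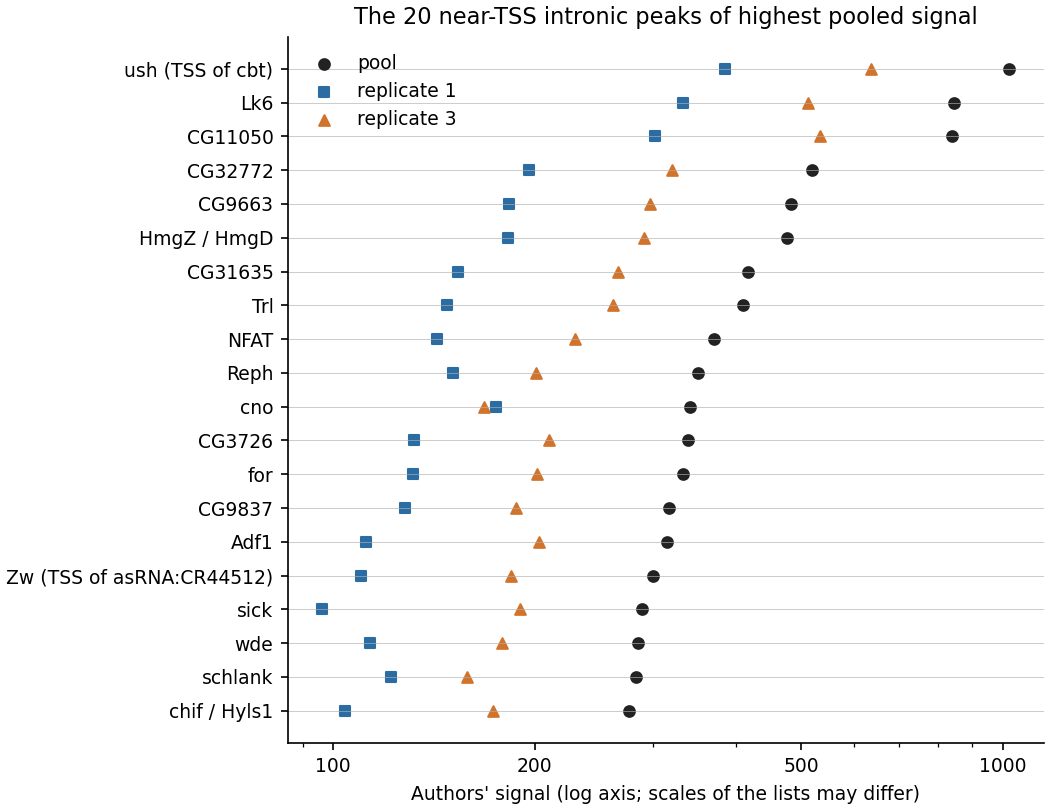
Authors' signal on a log axis for the 20 members of highest pooled signal, with 1 row per peak named by its host gene and, where it differs, the gene of the nearest TSS. Circles are the pool (276 to 1022), squares replicate 1 (96.3 to 384) and triangles replicate 3 (158 to 636); the triangle lies right of the square in 19 of 20 rows.

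Over all 341 members the pooled signal ran from 65.2 to 1022, with a median of 99.7 and quartiles of 77.0 and 139. All IDR peaks had a median of 97.5, promoter peaks 100.5 and deep intronic peaks 92.0. The highest signal was 993 among promoter peaks, 625 between genes, 511 in exons and 436 among deep intronic peaks. Regions were 396 bp wide in 264 members, the standard width of the list, narrower in 75 and wider in 2. The narrower members had a median signal of 204 against 88.1 for those of standard width. The members' median thus lay close to that of the whole list, and a few very strong peaks stood at the top.

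Every member overlapped a region in both replicates' own lists of 30000, as did all 448 deep intronic peaks. Those lists hold background regions too, and 1 bp of overlap sufficed. Members ranked as low as 11586 in replicate 1 and 7588 in replicate 3. In replicate 1 the members' signals ran from 13.0 to 384 with a median of 42.5, and in replicate 3 from 22.9 to 636 with a median of 60.2. Replicate 3 was higher in 303 of 341, with a median difference of 0.59 ± 0.51 on the log2 scale (SD over 341 members). The 2 replicates' signals had a Spearman rho of 0.69 across the 341 members, and their log2 values a Pearson r of 0.78. For the 448 deep intronic peaks these were 0.50 and 0.60, but their log2 difference was alike, 0.59 ± 0.52 (SD over 448 peaks). The pooled signal reached 1022 in members and 436 in deep intronic peaks. The part of this wider range in the higher correlations was not tested. These correlations are across peaks that were among the highest of the pool of both replicates.

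Among the 2226 highest regions of replicate 1 were 279 members, 81.8% (95% interval 77.3 to 85.8%), where the share over all IDR peaks was 80.8%. Among those of replicate 3 were 302, 88.6% (84.7 to 91.7%), against 87% over all IDR peaks. The deep intronic peaks gave 80.1% and 84.2%, and neither difference from the members passed Fisher's exact test (two-sided, Benjamini-Hochberg adjusted over 5 tests, p = 0.584 and 0.131). All 85 members of highest signal were among the highest regions in both replicates, whereas of the 85 weakest 42 were in replicate 1 and 50 in replicate 3. In all, 244 members were in both and 4 in neither, all 4 with pooled signals under the median of the members. Because the pool and the IDR list contain both replicates, these shares describe stability and are no independent check.

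**Figure D2:**
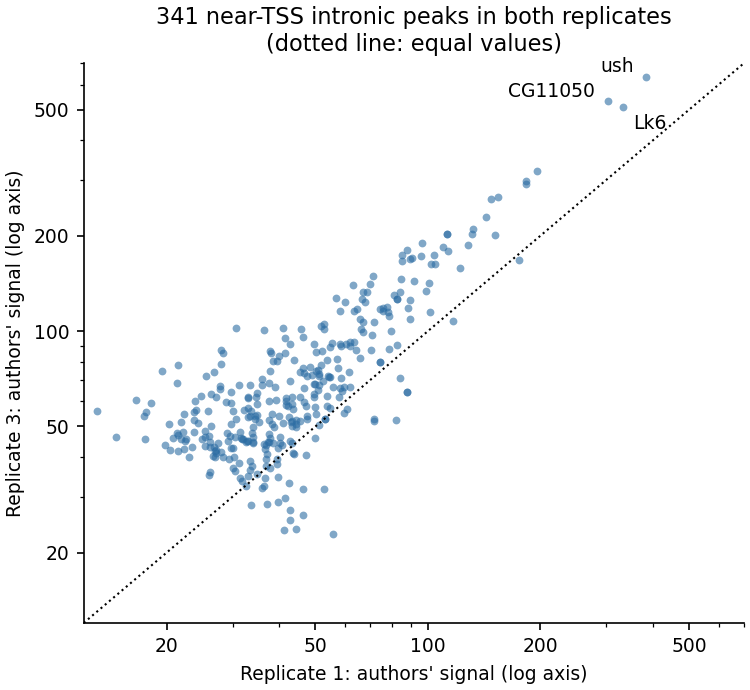
Signal of each of the 341 members in replicate 1 (x axis) and replicate 3 (y axis), both on log axes, with the line of equal values dotted. Of the points, 303 lie above the line, and the spread between replicates is wider among weak peaks than at ush, Lk6 and CG11050.

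A few members are not separate regions. Overlaps with IDR peaks that are not members were not counted here. In 10 members the region overlapped that of another member, and 10 shared their replicate 1 region and 10 their replicate 3 region with another member. An example is Dys, which encodes dystrophin, where neighbouring pooled peaks of 140 and 119 correspond to 1 region of 87.9 in replicate 1 and 1 region of 64.3 in replicate 3.

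The summits lay at a median of 1041 bp from the nearest TSS (quartiles 730 and 1416, range 509 to 1971). From 500 to 750 bp there were 90, and the count per 250 bp decreased to 66, 62, 47, 43 and 33 up to 2000 bp. The pooled list, which holds background regions too, thinned out in the same direction, from 1001 to 480 regions. The share of pooled regions that were IDR peaks was 8.99% (7.29 to 10.9%) from 500 to 750 bp and 6.88% (4.78 to 9.52%) from 1750 to 2000 bp, with overlapping intervals. Over the whole range it was 8.07% of 4228 pooled regions, against 7.42% over all 30000, 11.9% of those at promoters, 6.12% of those in deep introns and 1.21% of those in exons.

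**Figure D3:**
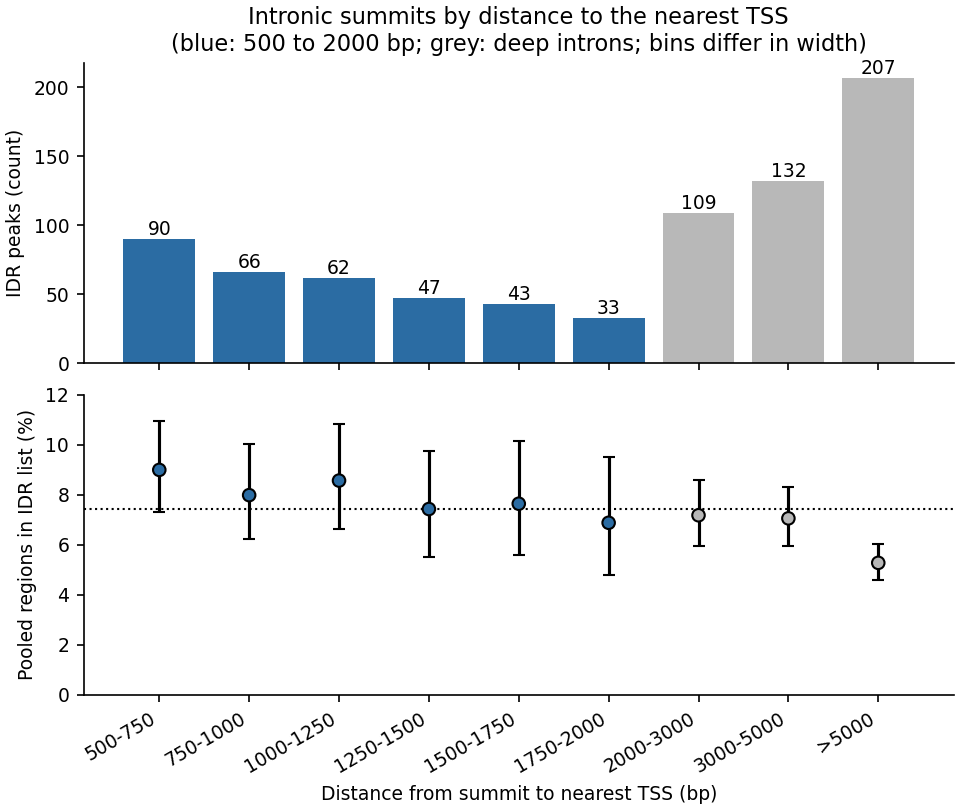
Upper panel, IDR peaks in introns by distance to the nearest TSS, with counts from 90 (500 to 750 bp) to 33 (1750 to 2000 bp) in blue and deep introns in grey, in wider bins. Lower panel, share of pooled intronic regions that are IDR peaks with exact 95% intervals; the dotted line is the 7.42% of all positions, and every blue interval includes it.

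The limits of 500 and 2000 bp cut through a continuous range. Just outside 500 bp were summits in CG14968 and Pino, both at 496 bp, and RhoGAP68F at 492 bp, with signals of 88.0, 82.9 and 78.9. Just inside were bun at 509 bp from the TSS of t-cup, and Pen and CG31612 at 510 bp, with 65.2, 123 and 233. At the outer limit msn at 1971 bp, CG43867 at 1959 bp and fru at 1942 bp were inside, with signals of 109, 119 and 79.4. Summits in lncRNA:CR44320 at 2002 bp, hiw at 2019 bp and CHES-1-like at 2034 bp were outside, with 114, 144 and 82.5.

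Most members were near a start site of the gene that held them. In 198, 58.1%, the nearest TSS belonged to a host gene and lay upstream of the summit in the direction of transcription, so that the summit was downstream of the start. In 89, 26.1%, the summit lay upstream of an alternative start of a host gene. The nearest TSS belonged to another gene in 54, 15.8%, of which the summit lay upstream of the start in 40 and downstream in 14. In those 54 the start was that of a protein-coding gene in 31, of a non-coding RNA in 16, of a tRNA in 3, of a snoRNA in 3 and of a pseudogene in 1. Median signals were 102 downstream and 100.5 upstream of a host's start, and 90.8 upstream and 80.6 downstream of another gene's start.

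First introns held 280 members, 82.1% (77.6 to 86.0%). A summit counted, in every set, when it lay in the first intron of any transcript of any host gene. Of the deep intronic peaks 300, or 67.0% (62.4 to 71.3%), lay in a first intron, and the odds ratio was 2.26 (two-sided exact Fisher test, adjusted p = 7.29e-06 over 5 tests). The rule partly sets this share, since a summit close to a start is likely to lie in the intron that follows it. Pooled regions under the same distance rule that overlapped no IDR peak were in a first intron in 2872 of 3827, 75.0% (73.6 to 76.4%), which the members exceeded with an odds ratio of 1.53 (same exact test, adjusted p = 0.0076). The unit of both tests is the region, and regions in 1 gene are not independent. The introns had a median length of 4937 bp (quartiles 2034 and 11312 bp, range 140 to 73902 bp), against 13909 bp for deep intronic peaks. Where transcripts or hosts differed, the shortest intron that held the summit was taken.

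The members lay in 321 distinct genes, 1.77% of the 18164 annotated genes, of which 309 were protein-coding. The coding hosts had a median length of 16082 bp against 2166 bp for all coding genes and 31694 bp for the coding hosts of deep intronic peaks, and long genes offer more intron. Of the hosts, 70 also held a deep intronic peak, 21.8% of the near hosts and 22.2% of the deep hosts. A single member was held by 282 hosts, 39 held at least 2 and 6 at least 3, and 27 members lay in more than 1 gene. Chromosome X had 81 members, 20% of its IDR peaks, and 2L had 55, 12.2% of its peaks, the lowest share among the large arms. The small chromosome 4 had 0 of 14 peaks, which allows a share of up to 21.4% (3 counts of 14).

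The genes with at least 3 members were mostly long. CG1677 and the overlapping lncRNA:CR44357 on X held the same 5, with signals of 82.6 to 197, and 4 of these were nearest to the start of another gene. These genes were CBP with 197, CG42780 with 98.5, unc-119 with 89.2 and brk, which encodes a repressor of Dpp target genes, with 82.6. The fifth also lay in Dok and near its start, with 150. NFAT held 3, of 371, 273 and 107, the first 2 upstream of an alternative start and the last downstream of another. Tpr2, a co-chaperone gene, held peaks of 169, 89.3 and 69.2, and Dys and Svil, which encodes supervillin, held 3 each with signals of 78.1 to 140 and 74.3 to 98.1.

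Developmental pathways supplied hosts at all levels of signal. Of 481 genes in 19 lists of pathways and tissues 44, 9.15%, held a member, where 1.77% of all genes and 2.22% of protein-coding genes did. The listed genes have a median length of 10458 bp, and the part of gene length in this difference was not tested. The counts below are therefore given without a claim about the lists. Besides those named below, several listed genes held a member nearest to the start of another gene. These were Wnt10 (ninaC), ttv (LamC), EcR (tRNA:Asn-GTT-1-1), br (Mur2B), NetB (hog) and kirre (CG32795). The same held for Cdk4 (asRNA:CR44375), RhoGEF64C (CG13713) and ena (lncRNA:CR43399). At ttv, br and kirre the start-site gene, LamC, Mur2B or CG32795, held the summit too. Those members were therefore counted above as nearest to a start of a host gene.

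In the Dpp and BMP pathway 5 of 26 genes held a member. Besides ush these were Mad, the pathway's transcription factor, with 235, the receptor genes wit with 174 and tkv with 66.6, and shn, which encodes a zinc-finger partner of Mad, with 71.2. In replicates 1 and 3 Mad had 101 and 142, wit 58.2 and 116, and tkv 22.3 and 42.4. The Mad, shn and tkv summits lay upstream of alternative starts of their own genes, and the wit summit was nearest to CG32259. Replicate 3 was the higher at Mad, wit and tkv. The peaks of shn differed in this order, since the stronger had 39.8 in replicate 1 and 28.9 in replicate 3, and a second member of 65.8 had 26.3 and 50.1.

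Of 33 genes of EGFR, FGF and other receptor tyrosine kinase signalling 5 held a member. S, which encodes a factor for trafficking of EGFR ligands, had 196, the adaptor gene drk 173, the FGF ligand gene ths 159 and the kinase gene Raf 77.7. In replicates 1 and 3 S had 67.1 and 133, drk 70.9 and 97.2, and ths 70.6 and 86.9. The drk and Raf summits were nearest to starts of other genes, mars and lncRNA:CR33218. In the Wingless pathway 4 of 29 genes held a member, the kinase gene sgg with 83.1, the ligand gene Wnt10 with 76.9, the receptor gene fz3 with 73.6 and ttv, which encodes a heparan sulphate polymerase, with 69.7, all below the median of the members.

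Engrailed is best known for its part in segment polarity, and of the 27 listed genes of segment polarity and Hedgehog signalling 2 held a member. These were boi, which encodes a Hedgehog co-receptor, with 106, and the glypican gene dlp with 71.8. Of 26 Notch pathway genes neur, which encodes a ubiquitin ligase acting on Notch ligands, held one of 92.7. None of 14 Hox genes and cofactors, none of 23 gap, pair-rule and maternal patterning genes and none of 21 tracheal and salivary gland genes held a member. Peaks of those genes at promoters, in deep introns or between genes are outside the rule and were not counted here.

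Among chromatin genes ph-p was the only host of 22 listed Polycomb group genes, with 128, and Trl the only one of 24 trithorax group and remodelling genes. Trl held a second member of 101, and of 16 genes for insulator and interband proteins Trl and the histone kinase gene JIL-1, with 83.2, were hosts. The ecdysone pathway had 3 of 25 genes, EcR, which encodes the ecdysone receptor, with 123, the nuclear receptor gene Hr4 with 101 and br, which encodes zinc-finger factors of metamorphosis, with 98.4. The br value differed between replicates, at 19.4 and 74.7. Of 33 listed zinc-finger, GATA and other transcription factors of the embryo 4 were hosts: ush, CHES-1-like, which encodes a forkhead protein, with 185, psq, which encodes a protein that binds GAGA sequences, with 100.5, and fru with 81.0.

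Neural transcription factor genes had 3 hosts of 38, zfh1, which encodes a zinc-finger homeodomain protein, with 165, fru, known for male courtship, and elav, which is on that list as a neuronal marker and encodes an RNA-binding protein, with 143. Axon guidance and adhesion had 3 of 47, the phosphatase gene Ptp10D with 94.5, the netrin gene NetB with 83.1 and kirre, which encodes an adhesion molecule of muscle founder cells, with 75.2. Of 36 actin and cell-shape genes 5 were hosts, including tsr, which encodes cofilin, with 218, tmod, which encodes tropomodulin, with 204, RhoGEF64C with 120 and ena, which encodes an actin filament elongation factor, with 78.2. Cell cycle and growth genes had 5 of 43, including Lk6, InR, which encodes the insulin receptor, with 227, Cdk4 with 97.5 and Mnt, which encodes an antagonist of Myc, with 78.5. Glia and midline genes had 2 of 16, crb, which encodes an apical polarity protein, with 83.1 and loco, which encodes a regulator of G-protein signalling, with 66.3. Muscle and mesoderm genes had 1 of 28, mbc, which acts in myoblast fusion, with 126.

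A promoter peak at the nearest TSS was the exception. It was present for 48 members, 14.1% (10.6 to 18.2%), and for 54 deep intronic peaks, 12.1% (9.19 to 15.4%), a difference that did not pass Fisher's exact test (odds ratio 1.20, adjusted p = 0.567 over 5 tests). Among the near-TSS intronic regions outside the IDR list the share was 8.99%, which was not tested against the members. Within the 48 pairs the intronic peak was the stronger in 25, with medians of 108 for the intronic and 114 for the promoter peaks. The share was 4.69% when the promoter summit had to lie within 200 bp of the start, and 30.2% when any start of the host gene counted. At cbt the intronic peak in ush exceeded the promoter peak, 1022 against 329, and at CG31635 it was 417 against 206. At CBP the order was opposite, 197 in the intron against 313 at the promoter, as at elav, 143 against 190. Some pairs may not be separate regions. At kuk, Ada2b, tacc, Rgl and CG11200 another IDR summit lay 204, 205, 208, 209 and 220 bp from the member's, within the width of 396 bp.

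Member summits were poor in G+C. The 101 bp at the summit had a median of 32.7% G+C (quartiles 28.7 and 38.6%) and the flank 42.6%. The summit was lower in 250 members, higher in 79 and equal in 12 (exact two-sided sign test, p = 7.87e-22, with peaks as the unit). In the profile the mean reached 32.6 ± 0.660% (SE over 341 members) at the summit and 42.8 ± 0.741% at 200 bp from it on the side away from the TSS. Flanks touched an annotated exon in 47 members, 13.8%, and where only members without such flanks were used the direction was the same.

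The dip was not particular to introns near a start. Deep intronic peaks had the same medians, 32.7% at the summit and 42.6% in the flank, promoter peaks 34.7 and 43.6%, and all IDR peaks 33.7 and 42.6%. Near-TSS intronic regions outside the IDR list had a shallower dip, 37.6% against 40.6%, with the summit lower than the flank in 55.8% of them, in 73.3% of the members and in 74.3% of the deep intronic peaks. These differences between sets were not tested.

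**Figure D4:**
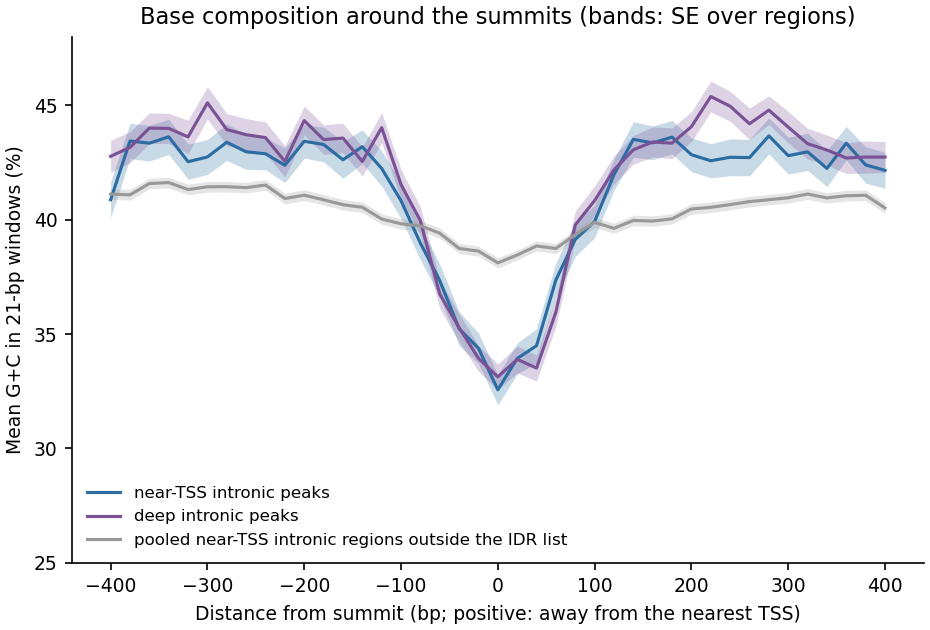
Mean G+C in 21-bp windows from 400 bp on the TSS side (negative) to 400 bp on the far side of the summit, with bands of 1 SE over regions. Members and deep intronic peaks dip to 32.6% and 33.1% at the summit, and near-TSS intronic regions outside the IDR list to 38.1%.

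The homeodomain core TAATTA did not differ past the threshold between summits and flanks. It occurred within 50 bp of 24 summits, 7.04% (4.56 to 10.3%), and in 25 flanks (exact McNemar test, adjusted p = 1 over 17 motifs). The order of summit and flank depended on the settings, and no setting passed the threshold. It was found at 9.38% of deep intronic summits, 7.73% of all IDR summits and 7.71% of near-TSS intronic regions outside the list. The 24 members with TAATTA had a median signal of 105 and those without 99.7. Member summits and flanks had median G+C of 32.7% and 42.6%, and TAATTA holds only A and T. Base composition sets how often such a word occurs, and no motif test here allowed for it. Whether TAATTA was rarer at summits than their composition predicts was not tested. The lines below give the summit windows of 4 members with the core, in capitals, in NFAT, in norpA, which encodes the phospholipase C of phototransduction, in Btk, which encodes a tyrosine kinase, and in CG9921. Their pooled signals were 371, 266, 234 and 213.
NFAT, chrX:13640444-13640544: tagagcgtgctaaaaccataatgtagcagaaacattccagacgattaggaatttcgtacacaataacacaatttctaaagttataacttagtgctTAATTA
norpA, chrX:4324948-4325048: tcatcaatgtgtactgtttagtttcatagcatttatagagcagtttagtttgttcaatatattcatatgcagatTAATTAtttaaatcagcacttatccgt
Btk, chr2L:8292558-8292658: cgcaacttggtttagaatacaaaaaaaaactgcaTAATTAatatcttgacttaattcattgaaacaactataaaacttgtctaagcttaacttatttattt
CG9921, chrX:16332959-16333059: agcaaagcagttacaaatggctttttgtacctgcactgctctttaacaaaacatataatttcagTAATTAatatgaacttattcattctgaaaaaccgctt

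The other 16 motifs were CAATTA for a variant homeodomain site, TAATCC for homeodomains of the Bicoid kind, GAGAG for the protein of Trl, CAGGTAG for Zelda, GATAAG for factors of the Serpent kind, TATCGATA for DREF, CGATA for BEAF-32, which is also contained in the DREF site, GTGGGAA for Su(H), CAGCTG for an E-box, TGAGTCA for AP-1, AACCGGTT for Grainy head, CACACA for dinucleotide repeats, GCCAT for Pleiohomeotic, CCGGAAG for ETS proteins, AGGTCA for nuclear receptors and GTAAACA for forkhead proteins. All were matched exactly on both strands. CACACA alone passed the threshold of 0.05, and it was rarer at summits, 25 against 53 flanks (exact McNemar test, adjusted p = 0.022). GAGAG was found at 37 summits and 63 flanks (exact McNemar test, adjusted p = 0.0624) and GTAAACA at 21 summits and 8 flanks (adjusted p = 0.137). CAGGTAG and CCGGAAG were at 0 of 341 summits, which allows a share of up to 0.880% (3 counts of 341) and has an exact 95% upper limit of 1.08%. Against deep intronic summits 0 of 17 motifs differed by Fisher's exact test, and 0 at an unadjusted p under 0.05. A match is only a run of letters and no shown binding site.

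**Figure D5:**
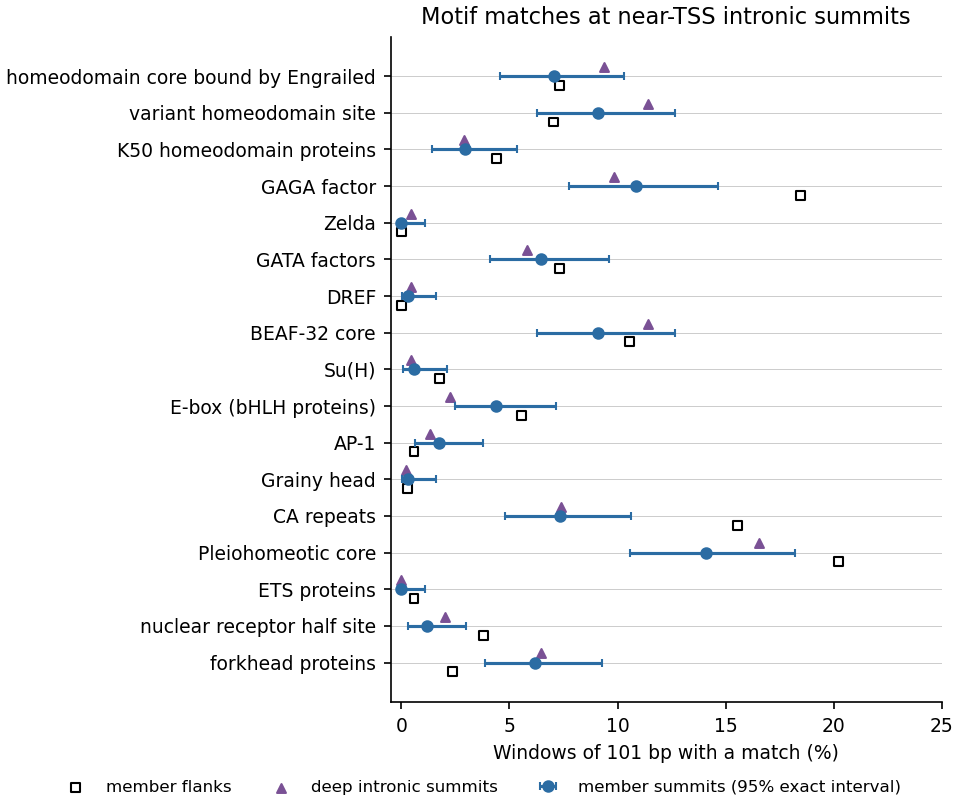
Share of 101-bp windows that hold a match of each of 17 motifs, named by the protein known for it, at member summits (circles with exact 95% intervals), member flanks (squares) and deep intronic summits (triangles). The Engrailed core is at 7.04% of summits and 7.33% of flanks, and CA repeats are at 7.33% and 15.5%.

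In a scan of all 6-letter words those more frequent at summits were rich in A and T. At an adjusted p under 0.05 (exact McNemar test, Benjamini-Hochberg over all words), 34 words, 1.63%, were more frequent at member summits than in flanks and 18, 0.865%, were less frequent. Of the 34, 13 were made of A and T alone and 19 had 1 other letter. Of the 18, 16 had at most 2 letters that were A or T. The scan made no allowance for the lower G+C at summits. The word TAAATA was at 107 summits and 51 flanks (adjusted p = 0.000662) and AATAGT at 42 and 11 (exact McNemar test, adjusted p = 0.00297), while CCCCCA was at 2 summits and 22 flanks (adjusted p = 0.00326). Many of these words overlap one another, so they are not separate sites, and their number moved with the window, from 3 with 25 bp each side to 62 with 100 bp. It was 19 with the 294 members whose flank touched no exon, and 2 with the 181 members among the 1113 strongest IDR peaks.

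At deep intronic peaks all of these words went in the same direction, although only part of them passed the threshold there. They had 98 words called higher and 95 called lower at summits than in flanks, with 448 windows. Of the 34 words higher at member summits 23 were also called higher there, and of the 18 lower words 6 were also called lower. Each of the 34 was at more deep intronic summits than deep intronic flanks, and each of the 18 at fewer. A word called only at members is therefore not shown to be particular to them. Between member and deep intronic summits 0 words, 0%, differed by Fisher's exact test after adjustment, with 74 at an unadjusted p under 0.05 and a smallest adjusted p of 1. In AGATCA, at 28 member and 12 deep intronic summits, the unadjusted p was 0.000515. A difference between the 2 kinds of intronic summit was thus not detectable with 341 and 448 windows.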

How the data were processed

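The authors' deposited lists were used: for each replicate and for the pool 30000 regions, peaks and background together, in genome build dm6, and an optimal IDR list of 2226 peaks from the pool. Control reads entered the calling, per the deposited text descriptions, and no control library was analysed here. Column 7 of each list holds the authors' deposited signal value per region, and no source used here states its scale. The 2226 IDR peaks were the 2226 highest regions of the pooled list. The lists give no read counts, so the depth of the libraries is unknown.

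Summits were placed on Ensembl release 115 genes (BDGP6) without transposable elements, on the 6 main chromosome arms. DNA was read from the RefSeq release 6 genome, which has the same coordinates as dm6, in windows of 101 bp at the summit and at a flank 400 bp away on the side away from the nearest TSS. A region counted as found in a replicate with 1 bp of overlap. Clopper-Pearson intervals, Fisher's, McNemar's and sign tests were exact and two-sided, with Benjamini-Hochberg adjustment, in scipy 1.17.1, numpy 2.4.6 and pandas 2.3.3 (Python 3.11.15), and intervals cover counting error over regions only. The scan was tested on simulated windows with planted words, where all sets of windows were drawn with the same base composition. The simulation therefore cannot show how the scan behaves under the G+C difference between summits and flanks. With 1 group, no test between samples was possible. Named are the hosts and start-site genes of the 20 strongest members, hosts of 3 or more members with their start-site genes, up to 4 hosts per list and the 3 peaks on each side of both distance limits. The word AGATCA was chosen after its values were seen. No DNA of chromosome arm 2R is shown, and 1 further summit sequence is not reported here. Of the 481 listed genes 13 were matched through a synonym. The members, motifs and lists were chosen with earlier results of these data known. Alternatives varied distances, annotation, windows, flanks, overlap and list.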

Additional observations from a re-analysis of the deposited data

How the results depend on the processing

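Of 52 alternative values for 11 results, 32 were called the same. For tested results this meant the same direction and the same side of the threshold. For counts, which have no direction or test, it meant a value equal or close to the reported one. The share in the first intron and the lower G+C at summits were among these under every alternative run for them. In 9 the direction of a difference turned, and in none of these was the difference past the threshold in either setting. TAATTA was rarer at summits than in flanks by 1 window in the reported setting. It was more frequent at summits for the 181 members among the 1113 strongest IDR peaks (7.18% of summits) and with the flank towards the TSS (7.04%). The same held with windows of 25 bp (4.11%) and 100 bp (13.8%) on each side, and with either replicate left out (6.28 to 6.88%). The members' share turned below that of deep intronic peaks among the highest regions of replicate 1 for the 1113 strongest peaks (96.1%), among the 5000 highest regions of replicate 3 (98.2%), and for a promoter peak within 200 bp of the start (4.69%). For the 1113 strongest peaks the share in replicate 3 was 100% in both sets. The causes were not tested. The number of members was 516 with an inner limit of 200 bp, 185 with one of 1000 bp and 181 among the 1113 strongest IDR peaks, as the rule and the shorter list imply. The median signal was 136 among those 181 members, and 41.1 to 57.4 with either replicate left out. There the remaining replicate's own list was used, and the lists have scales of their own. The number of 6-letter words more frequent at summits was 2 for the 181 members among the 1113 strongest peaks, where fewer windows were compared. It was 3 with 25 bp and 62 with 100 bp on each side of the summit. With the 294 members whose flank touched no exon, an alternative chosen after seeing the data, it was 19. The cause was not tested. The share of members with a companion promoter peak was 30.2% when any start of the host counted. No paired analysis was possible because both libraries belong to 1 group. Depth is unknown, so the smallest signal that could be detected cannot be given.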
